A study of Mus musculus with 47 samples.

Results

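Serotonin neuron genes were taken as a fixed set of 7 genes, found by gene symbol or Ensembl identifier in both deposited count tables, of 55416 gene identifiers in all. The rule lists the genes by name and applies no measured value, though the list was drawn up with earlier results of these data known. It holds Tph2, Slc6a4 and Slc18a2 for the making, uptake and packing of serotonin, and Fev, Lmx1b, Gata2 and Gata3 for the transcription factors of these cells. All 7 were found, each under 1 identifier. The study asked how restriction of a single branched-chain amino acid changes the brain of 3xTg mice, a model of Alzheimer's disease, and sequenced brain RNA from both sexes. The mice carried mutant human APP and tau transgenes driven by the neuronal Thy1 promoter, in the Control groups as in all others, and no library of non-transgenic mice is analysed here. From 6 months of age and for 9 months they ate an amino acid-defined Control diet or a diet of that kind in which isoleucine was restricted (IleR), or leucine (LeuR), or valine (ValR).

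The libraries analysed were 14 from males, with 4 Control, 3 IleR, 3 LeuR and 4 ValR, and 23 from females, with 6 Control, 5 IleR, 6 LeuR and 6 ValR. Another 10 male libraries named in the labels are not analysed here. Libraries are called by sex, diet and the number in their label. Total counts ran from 12682687 to 25722333 in males and from 10672599 to 21370973 in females. The study's text gives whole brain in 1 place and the left hemisphere in another as the source of the RNA, and 1 label field names liver. CPM are counts scaled to a common library size by the trimmed mean of M-values (TMM), for each sex apart. The summed level of 6 liver genes was at most 10.3 CPM in any library, whereas 6 pan-neuronal genes summed to between 3264 and 5789.6 CPM. Nothing in the labels says whether 2 libraries share a cage or a day, so p-values measure the spread between these libraries.

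Serotonin neurons are few and their cell bodies sit in the raphe nuclei along the midline of the brainstem, from which their axons reach nearly the whole brain. Tph2 hydroxylates tryptophan in the first and rate-limiting step of serotonin synthesis, Slc6a4 encodes the serotonin transporter SERT that takes serotonin back into the cell, and Slc18a2 encodes VMAT2, which loads serotonin, dopamine, noradrenaline and histamine into vesicles. Fev (Pet1), an ETS factor, and Lmx1b, a LIM homeodomain factor, are needed for serotonin neurons to form and to keep their identity, while Gata2 and Gata3 are zinc-finger factors that act in serotonin precursors and also in GABAergic neurons of the midbrain and, for Gata2, in blood and vessel cells.

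Tph2, Slc6a4 and Fev were all highest in the same 3 of 37 libraries (male IleR 14 and LeuR 19 and female Control 27), so the RefSeq windows around their start sites are printed, from 250 bases before to 50 after the start, in the build GRCm38.p6. The Tph2 window lies at chr10:115184973-115185272 on the minus strand, the Slc6a4 window at chr11:76998347-76998646 on the plus strand and the Fev window at chr1:74885359-74885658 on the minus strand. Capitals mark matches on either strand to the letters that GATA factors are known to bind, to a homeodomain core and to a form bound by ETS factors. For GATA factors the letters AGATAA were searched, and so were the letters AGATAG. The same was done for the letters TGATAA, and for the letters TGATAG. The homeodomain core was TAATTA. The ETS form was CGGAAG.
Tph2: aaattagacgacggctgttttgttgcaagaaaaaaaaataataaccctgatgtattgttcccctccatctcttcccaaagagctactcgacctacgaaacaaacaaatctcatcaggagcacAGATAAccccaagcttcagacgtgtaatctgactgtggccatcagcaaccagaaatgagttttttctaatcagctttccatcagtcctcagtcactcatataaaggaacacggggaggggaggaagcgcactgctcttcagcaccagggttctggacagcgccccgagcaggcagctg
Slc6a4: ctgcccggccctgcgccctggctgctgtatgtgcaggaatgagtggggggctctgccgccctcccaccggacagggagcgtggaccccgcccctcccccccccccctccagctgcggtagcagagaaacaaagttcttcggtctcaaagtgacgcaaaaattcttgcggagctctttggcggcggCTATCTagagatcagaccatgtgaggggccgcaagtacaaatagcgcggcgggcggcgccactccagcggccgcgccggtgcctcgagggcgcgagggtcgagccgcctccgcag
Fev: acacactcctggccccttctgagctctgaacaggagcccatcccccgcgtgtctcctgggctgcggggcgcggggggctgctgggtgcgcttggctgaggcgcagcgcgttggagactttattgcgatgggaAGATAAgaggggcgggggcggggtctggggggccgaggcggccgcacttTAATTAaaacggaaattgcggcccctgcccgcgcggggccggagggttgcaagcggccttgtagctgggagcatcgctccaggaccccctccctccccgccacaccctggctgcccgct
The Tph2 window held AGATAA. In the Slc6a4 window AGATAG was found on the reverse strand, so that the printed capitals give its complement read backwards. The Fev window held AGATAA as well as the homeodomain core. Of all 32851 windows of this length, 29.8% held at least 1 of the 4 GATA forms, 11.2% held AGATAA, 8.95% held AGATAG and 5.29% held the homeodomain core. The ETS form, held by 16.9% of windows, was in none of the 8 windows of the members. A GATA form was also in the windows of Slc18a2 and Gata3, and the windows of Lmx1b and Gata2 held no match. These matches describe the letters of the windows and nothing in the data measured binding to them.

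Before any comparison of diets, a few libraries have to be named because they hold most of the signal. Male IleR 14 and male LeuR 19 together held 81.0% of the summed Tph2 CPM of the 14 male libraries, 81.8% of that of Slc6a4 and 58.7% of that of Fev. In females, Control 27 alone held 71.8% of the Tph2, 84.1% of the Slc6a4 and 42.6% of the Fev. Male Control 4 stood apart from the other 3 male Controls in Slc18a2 and Gata3 but not in Tph2. Values without them are given beside the main results they touch.

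Marker genes of brain regions differed with diet in males, while the members did not all follow them. The summed CPM of 7 genes of brainstem and spinal cord (Hoxa2, Hoxa3, Hoxb2, Hoxb3, Hoxb4, Slc6a5 and Glra1) was between 0.391 and 8.98 in male Control, between 68.8 and 219 in IleR, between 2.54 and 533 in LeuR and between 110 and 542 in ValR. Hoxa2 and Hoxa3 were at 0 in all 4 male Controls. They passed the filter on low counts (1 count or more in each library of some diet group) only through restricted groups, where they were higher. The summed CPM of 7 forebrain genes was at 266 CPM or above in male Control and at 166 CPM or below in every restricted male library. Of these lists, 4 of 7 brainstem genes in IleR and 7 of 7 in both LeuR and ValR rose, 5 of 6 cerebellar genes rose under each diet, and 6, 5 and 6 of 7 forebrain genes fell in IleR, LeuR and ValR, by edgeR. Over all genes tested 6.63%, 3.81% and 11.1% rose and 8.68%, 6.33% and 12.4% fell. limma voom called 0, 0 and 3 of the brainstem genes, 3, 0 and 4 of the cerebellar genes and 5, 6 and 5 of the forebrain genes. A hindbrain score, the mean log2 CPM of the brainstem and cerebellar lists minus that of the forebrain list, ran from -8.46 to -5.65 in male Control and from -3.70 to 5.80 in the restricted males. ValR 12, at 110 CPM of the brainstem list, had 0.255 CPM of Tph2, and LeuR 21, at 2.54 CPM of that list, had 27.2 CPM of Slc18a2 and 4.52 CPM of Lmx1b. In females the score overlapped between all 4 diets, with medians from -7.20 to -5.89, but single libraries differed widely. It ran from -7.97 to -0.653 in female Control, from -8.05 to -1.65 in IleR, from -7.84 to 4.22 in LeuR and from -7.58 to 0.156 in ValR. In males, diet and the region sampled therefore cannot be told apart, and in all of these tissue samples fewer cells of a type cannot be told apart from less RNA per cell.

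**Figure D1:**
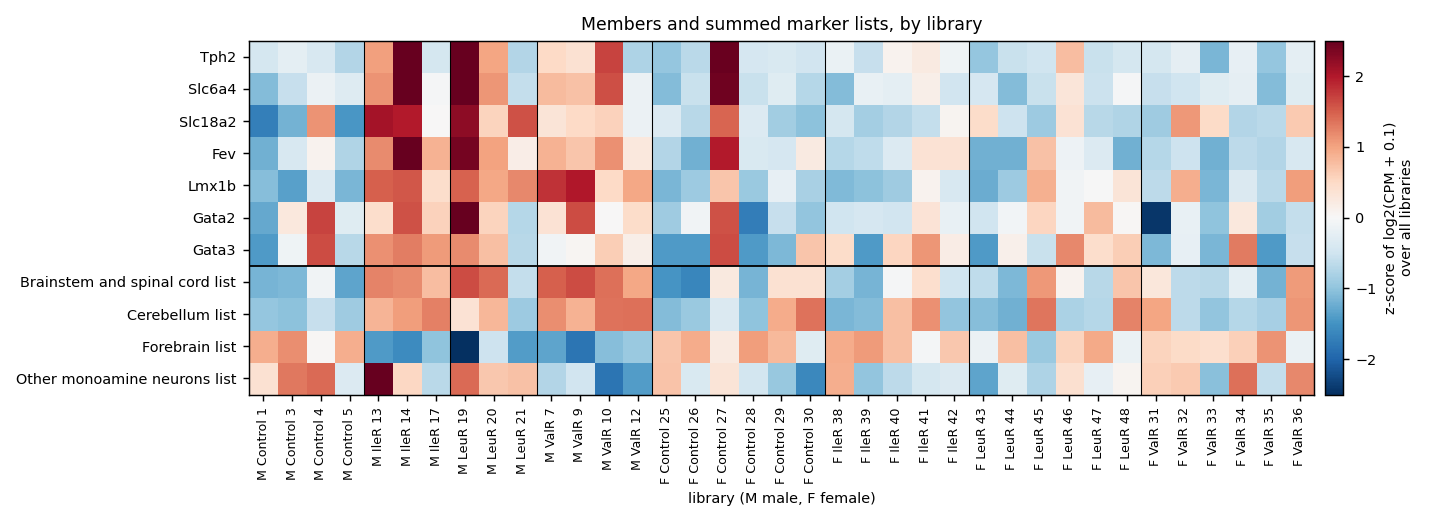
Each column is 1 library and each line is a gene or the summed CPM of a marker list, colored by the z-score of log2(CPM + 0.1) over all 37 libraries. Male IleR 14, male LeuR 19 and female Control 27 are the darkest columns for Tph2, Slc6a4 and Fev, and the brainstem and cerebellar lists are higher in restricted males, LeuR 21 excepted, than in male Control.

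Tph2 (ENSMUSG00000006764, chromosome 10, 115078641 to 115185022, minus strand, GRCm38) marks the serotonin neurons of the brain. In male Control its level was 0.477, 0.651, 0.509 and 0.279 CPM in libraries 1, 3, 4 and 5, from 5 to 11 counts each. In IleR-fed males it was 4.53, 56.8 and 0.474 CPM in libraries 13, 14 and 17, and in LeuR-fed males it was 58.8, 4.23 and 0.282 CPM in libraries 19, 20 and 21. ValR-fed males had 2.09, 1.75, 11.6 and 0.255 CPM in libraries 7, 9, 10 and 12. Each restricted group thus held 1 library at the level of the Controls, and the high values of IleR and LeuR each came from a single library.

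Tph2 rose in IleR-fed males by 5.42 ± 1.73 (log2 fold change ± SE, n = 3 against 4; edgeR quasi-likelihood test, adjusted p = 0.0499). In LeuR-fed males the log2 fold change was 5.46 ± 1.73 with an adjusted p of 0.0617 (edgeR, n = 3 against 4). For ValR-fed males it was 3.03 ± 1.68, adjusted p = 0.220 (edgeR, n = 4 against 4). The call in IleR was kept in 4 of the 14 fits that each left out 1 male library, and Tph2 was called in LeuR in 3 of them. Without IleR 14 the log2 fold change was 2.37 (adjusted p = 0.422), and without LeuR 19 the LeuR value was 2.17 (adjusted p = 0.526), both in edgeR. Without ValR 10 the ValR value was 1.49 (adjusted p = 0.634). With the hindbrain score as a covariate the IleR call was lost and the directions turned, to -5.06 in IleR, -4.40 in LeuR and -8.76 in ValR (adjusted p from 0.535 to 0.728), in a fit where 3, 10 and 0 of 22197 genes were called. The score did not overlap between male Control and any restricted diet, so its part and that of diet cannot be told apart in that fit.

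Slc6a4 (ENSMUSG00000020838, chromosome 11, 76998603 to 77032340, plus strand) followed Tph2 closely. Male Control libraries 1, 3, 4 and 5 had 0, 0.118, 0.318 and 0.223 CPM, at most 5 counts, IleR libraries 13, 14 and 17 had 2.92, 40.7 and 0.415 CPM, and LeuR libraries 19, 20 and 21 had 35.5, 2.84 and 0.113 CPM. ValR libraries 7, 9, 10 and 12 had 1.73, 1.55, 6.37 and 0.319 CPM. All IleR and all ValR libraries lay above all Controls, although IleR 17 and ValR 12 did so narrowly, and LeuR 21 lay among the Controls. SERT mRNA rose in IleR-fed males by 6.40 ± 1.83 (adjusted p = 0.0309) and in LeuR-fed males by 6.20 ± 1.83 (adjusted p = 0.0475, edgeR), and in ValR-fed males the log2 fold change was 3.85 ± 1.83 (adjusted p = 0.151). With 0 counts in Control 1, Slc6a4 passed the filter on low counts (1 count or more in each library of some diet group) only through the restricted groups, where it was higher. With no filter the calls in IleR (adjusted p = 0.0240) and LeuR (adjusted p = 0.0385) were kept. Leaving out IleR 14 gave 3.25 (adjusted p = 0.275) and leaving out LeuR 19 gave 3.02 (adjusted p = 0.398) for the diet that lost its highest library. Of the 14 fits that each left out 1 male library, 10 kept the call in IleR and 3 kept that in LeuR, which was lost, for example, without Control 1 (adjusted p = 0.128) or ValR 7 (adjusted p = 0.0656). With the hindbrain covariate both calls were lost and the values turned to -5.06 in IleR, -4.48 in LeuR and -9.12 in ValR (adjusted p from 0.529 to 0.723).

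The share of Slc6a4 in the summed Slc6a4 and Tph2 counts ran from 35.5% to 46.9% over the male libraries with enough counts. Taking libraries with at least 20 counts of both genes together, Slc6a4 made up 41.7% of their summed counts in IleR 14 (95% Wilson interval 39.9% to 43.6%) and 37.6% in LeuR 19 (35.6% to 39.7%). The intervals of these 2 libraries did not overlap, though narrowly. In female Control 27 the share was 39.5% (36.3% to 42.8%). The remaining 5 male libraries that reached 20 counts ran from 35.5% in ValR 10 to 46.9% in ValR 9, all with intervals that overlapped that of Control 27. Among the other females, LeuR 46 had 19.7% (11.6% to 31.3%), below the interval of Control 27, from 12 counts of Slc6a4 and 49 of Tph2. Female IleR 40 and 41 had 19.0% (7.67% to 40.0%) and 29.5% (18.2% to 44.2%), with intervals that overlapped that of Control 27. Fev, in contrast, ranged from 5.27% of the summed Fev and Tph2 counts in LeuR 19 (4.21% to 6.57%) to 23.7% in ValR 7 (13.0% to 39.2%) among males. These intervals cover counting error only, since reads were not counted by molecule.

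Fev (ENSMUSG00000055197, chromosome 1, 74881509 to 74885419, minus strand) was at or near the limit of detection in Control. It reached 0, 0.118, 0.255 and 0.0559 CPM in male Control libraries 1, 3, 4 and 5, which is 0 to 4 counts. IleR libraries 13, 14 and 17 had 0.931, 4.48 and 0.652 CPM, LeuR libraries 19, 20 and 21 had 3.27, 0.768 and 0.282 CPM, and ValR libraries 7, 9, 10 and 12 had 0.648, 0.539, 0.885 and 0.319 CPM. No restricted male library overlapped a Control, though the lowest, LeuR 21 with 5 counts, was close. Fev rose in IleR-fed males by 4.17 ± 0.98 (adjusted p = 0.0120) and in LeuR-fed males by 3.69 ± 0.99 (adjusted p = 0.0332, edgeR). ValR-fed males had a log2 fold change of 2.40 ± 1.01 (adjusted p = 0.104). Fev, too, had 0 counts in Control 1 and passed the filter only through the restricted groups, and with no filter both calls were kept (adjusted p = 0.00882 in IleR and 0.0287 in LeuR). With IleR 14 left out the IleR call was lost at 2.80 (adjusted p = 0.0974), and with LeuR 19 left out the LeuR call was lost at 2.18 (adjusted p = 0.260). The LeuR call was also lost without Control 1, 3 or 5 (adjusted p = 0.0924, 0.0897 and 0.0823), so that 10 of 14 such fits kept it, and 13 kept that in IleR. With the hindbrain covariate both calls were lost and the values turned to -1.21 in IleR, -0.97 in LeuR and -3.83 in ValR (adjusted p from 0.545 to 0.886).

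**Figure D2:**
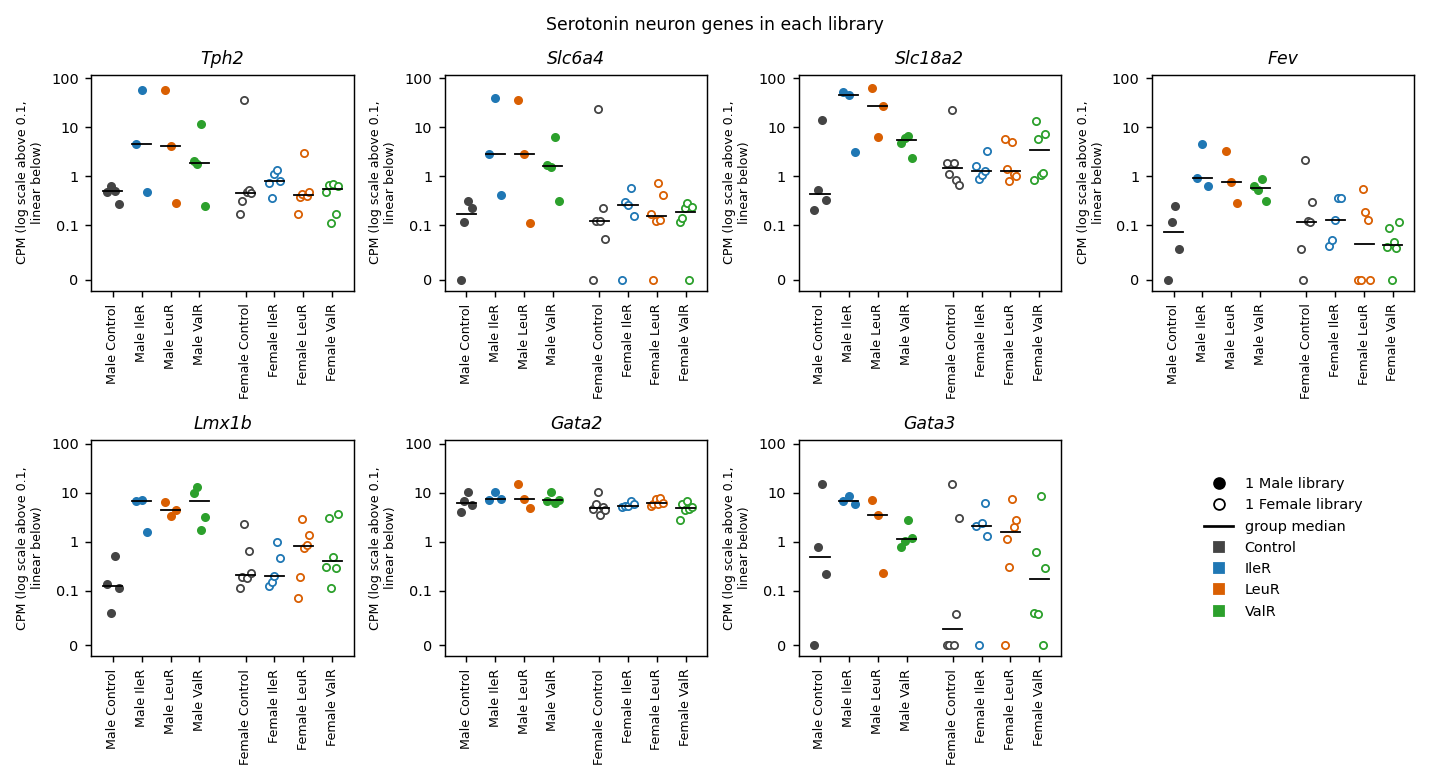
Points are single libraries, filled for males and open for females, with CPM on an axis that is logarithmic above 0.1 and linear below, and bars are group medians. Tph2, Slc6a4 and Fev show the same few high libraries, Lmx1b is above Control in every restricted male library, and Gata2 stays between 2.80 and 14.9 CPM throughout.

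Lmx1b (ENSMUSG00000038765, chromosome 2, 33560965 to 33640511, minus strand) behaved differently from those 3 genes. Its level was 0.136, 0.0592, 0.509 and 0.112 CPM in male Controls 1, 3, 4 and 5, 6.64, 7.20 and 1.60 CPM in IleR 13, 14 and 17, and 6.45, 3.30 and 4.52 CPM in LeuR 19, 20 and 21. In ValR-fed males it was 10.0, 13.2, 1.71 and 3.25 CPM in libraries 7, 9, 10 and 12. Every restricted male library lay above every Control, and the order of libraries was not that of Tph2, since ValR 7 and 9 were highest in Lmx1b with 2.09 and 1.75 CPM of Tph2 whereas ValR 10 was highest of its group in Tph2 and lowest in Lmx1b.

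Lmx1b rose under all 3 diets, by 4.63 ± 0.84 in IleR (adjusted p = 0.00296), by 4.52 ± 0.84 in LeuR (adjusted p = 0.00800) and by 5.08 ± 0.82 in ValR (adjusted p = 0.000721, edgeR quasi-likelihood test). It was the only member called in ValR-fed males, and its 3 calls were kept in all 14 fits that left out 1 male library each. Without both IleR 14 and LeuR 19 the LeuR call was lost (4.24, adjusted p = 0.0593), when 39 of 22785 genes rose and 168 fell in LeuR. It was also lost when only LeuR and Control were fitted, where none of 21015 genes was called by edgeR, with 4607 at an unadjusted p under 0.05. ValR 9 and 7 were also the 2 highest of the ValR libraries in the brainstem list, at 542 and 384 CPM, and with the hindbrain score as a covariate the log2 fold changes of Lmx1b under the 3 diets were 3.44, 3.60 and 3.61 (adjusted p from 0.543 to 0.599).

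Slc18a2 (ENSMUSG00000025094, chromosome 19, 59260896 to 59296012, plus strand) is used by all monoamine neurons and was high in several libraries with little Tph2. Male Controls 1, 3, 4 and 5 had 0.204, 0.533, 14.0 and 0.335 CPM, IleR 13, 14 and 17 had 51.6, 45.2 and 3.08 CPM, and LeuR 19, 20 and 21 had 64.9, 6.45 and 27.2 CPM. In ValR 7, 9, 10 and 12 it was 4.75, 6.07, 6.72 and 2.42 CPM. Control 4 thus lay above all 4 ValR libraries and above IleR 17 and LeuR 20. Log2 fold changes were 3.15 ± 1.18 in IleR (adjusted p = 0.0903), 3.14 ± 1.18 in LeuR (adjusted p = 0.106) and 0.42 ± 1.13 in ValR (adjusted p = 0.841, edgeR). Without Control 4 they were 6.50, 6.48 and 3.76, and all 3 passed the threshold (adjusted p = 0.00222, 0.00281 and 0.0331).

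Markers of other monoamine neurons were high in some of the libraries where Slc18a2 was high, and those named here were chosen after their values were seen. IleR 13, with 51.6 CPM of Slc18a2 and 4.53 CPM of Tph2, had 44.3 CPM of Th, which makes the precursor of dopamine and noradrenaline, and 88.1 CPM of Slc6a3, the dopamine transporter. Control 4 had 12.8 CPM of Th and 31.0 CPM of Slc6a3, against at most 0.0681 CPM of Slc6a3 in the other male Controls. LeuR 21 had 21.8 CPM of Th and 24.8 CPM of Hdc, which makes histamine. LeuR 19, the highest in Slc18a2, also had the most Dbh, the enzyme that makes noradrenaline, at 26.6 CPM. Over the 10 genes of that list, 4 rose and 1 fell in IleR, 5 rose in LeuR, and 4 rose and 1 fell in ValR by edgeR, against 6.63%, 3.81% and 11.1% of all genes that rose, and limma voom called 2, 2 and 3. Their summed CPM was 41.5 to 95.2 in male Control, 35.1 to 188 in IleR, 67.2 to 95.3 in LeuR and 20.4 to 38.7 in ValR. The part of these other neurons in the level of Slc18a2 was not tested.

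**Figure D3:**
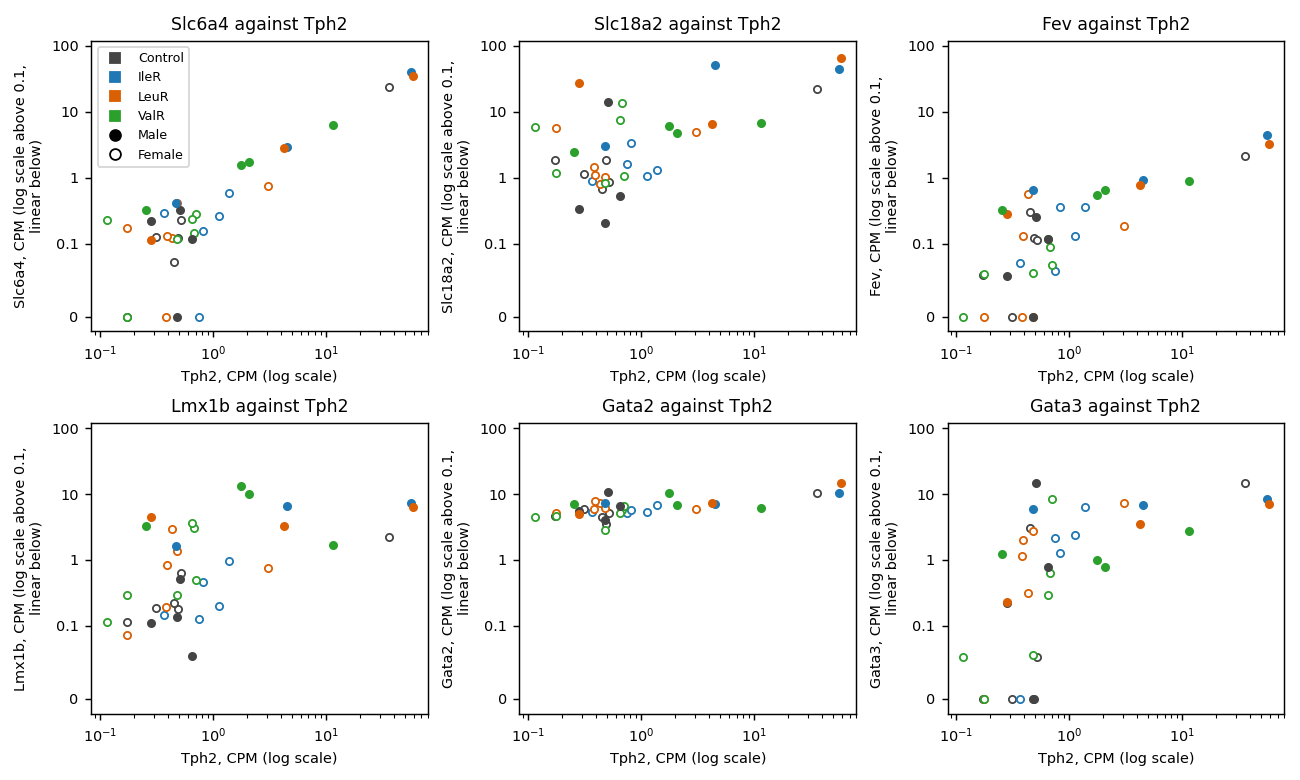
Each panel sets 1 member against Tph2, both in CPM per library, with males filled and females open and diets in color. Slc6a4 and Fev are highest in the 3 libraries highest in Tph2, whereas Slc18a2, Lmx1b and Gata3 are also high in libraries with under 1 CPM of Tph2 and Gata2 is nearly level.

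Gata3 (ENSMUSG00000015619, chromosome 2, 9857078 to 9890034, minus strand) was highest in a Control. Male Controls 1, 3, 4 and 5 had 0, 0.769, 14.8 and 0.223 CPM, IleR 13, 14 and 17 had 6.70, 8.40 and 5.87 CPM, and LeuR 19, 20 and 21 had 7.03, 3.46 and 0.226 CPM. ValR 7, 9, 10 and 12 had 0.792, 1.01, 2.71 and 1.21 CPM, all below the 3 IleR libraries. Against Control the log2 fold changes were 0.83 ± 1.21 in IleR, -0.13 ± 1.24 in LeuR and -1.45 ± 1.21 in ValR, with adjusted p from 0.438 to 0.962 (edgeR). Without Control 4 they were 4.34 (adjusted p = 0.0109), 3.38 (adjusted p = 0.0384) and 2.07 (adjusted p = 0.157), so Gata3 was called in IleR and LeuR only in the fit without that library, and its direction in ValR turned only there among the 14 fits. In LeuR the direction also turned without LeuR 21 (0.43, adjusted p = 0.860).

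Gata2 (ENSMUSG00000015053, chromosome 6, 88193891 to 88207032, plus strand) varied least. Its levels were 4.09, 6.69, 10.6 and 5.59 CPM in male Controls 1, 3, 4 and 5, 7.08, 10.2 and 7.41 CPM in IleR 13, 14 and 17, 14.9, 7.38 and 4.91 CPM in LeuR 19, 20 and 21, and 6.91, 10.4, 6.19 and 7.14 CPM in ValR 7, 9, 10 and 12. These ranges overlapped for every pair of diets. Its log2 fold changes were 0.30 ± 0.37, 0.43 ± 0.37 and 0.18 ± 0.34 in IleR, LeuR and ValR, with adjusted p from 0.484 to 0.758 (edgeR). The summed CPM of 6 endothelial genes, a cell type that also uses Gata2, lay between 199 and 324 in all male libraries, and that of 9 blood and mast cell genes ran from 581 in Control 1, the lowest in Gata2, to 19631 in LeuR 19, the highest. The libraries between did not keep that order, with 1440 CPM of the list in IleR 14, 4118 in Control 5 and 6780 in LeuR 20, where Gata2 was at 10.2, 5.59 and 7.38 CPM.

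Counted together, 4 of the 7 members rose in IleR-fed males (Tph2, Slc6a4, Fev and Lmx1b), 3 rose in LeuR-fed males (Slc6a4, Fev and Lmx1b) and 1 rose in ValR-fed males (Lmx1b), and none fell. Slc6a4, Fev and Gata3 had passed the filter only through restricted groups, and with no filter the counts were also 4, 3 and 1. Of all 22197 genes tested, 6.63% rose in IleR, 3.81% in LeuR and 11.1% in ValR by the same rule, and 8.68%, 6.33% and 12.4% fell. The members' median log2 fold change was 4.17 in IleR, 3.69 in LeuR and 2.40 in ValR, against 0.04, 0.05 and 0.03 over all genes. All restricted libraries lay above all Controls for 3 members in IleR, 2 in LeuR and 3 in ValR, and for 14.8%, 8.21% and 12.7% of all genes, while no member had all restricted libraries below all Controls, as 14.5%, 9.48% and 13.6% of genes did. The 3 comparisons share the 4 male Controls and are not independent. limma voom called 2, 1 and 1 members, where 1638, 869 and 2442 of all genes rose, and DESeq2 called 4, 4 and 3, where 1857, 1496 and 2807 rose. Without both IleR 14 and LeuR 19 edgeR called 2, 0 and 3, and the genes that rose numbered 778, 39 and 2335 of 22785, in place of 1472, 845 and 2470 of 22197.

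**Figure D4:**
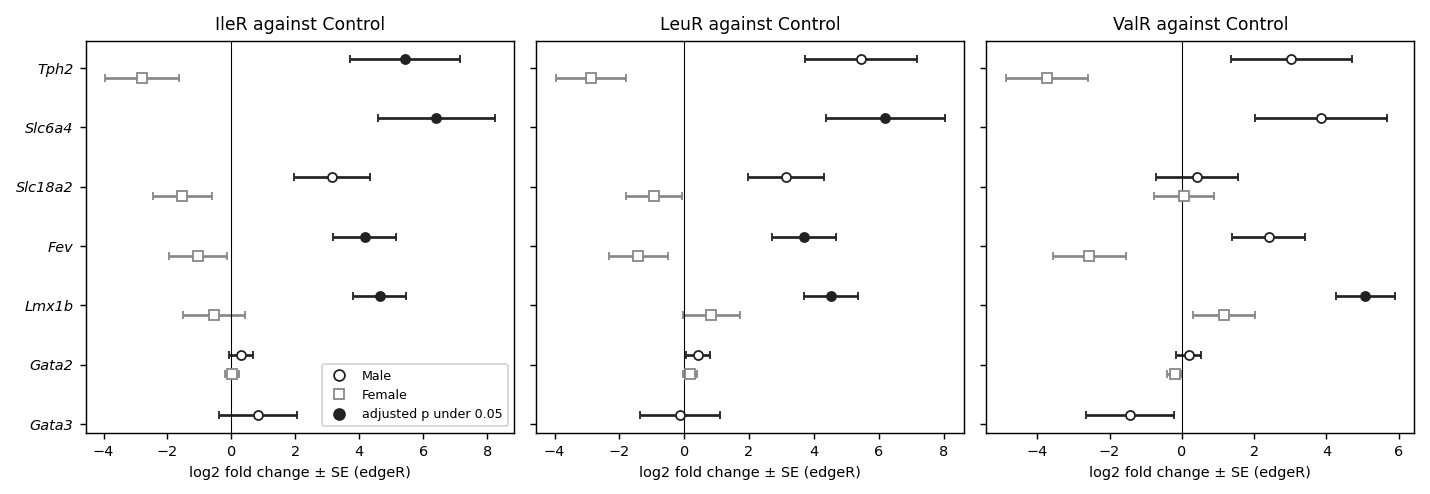
Points give the log2 fold change of each member against Control with its SE, circles for males and squares for females, filled where the adjusted p was under 0.05. In males, 8 values are filled, all to the right of 0, and in females none is; Slc6a4 and Gata3 have no female point because they did not pass the filter on low counts.

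Between the restricted diets no member was called by edgeR in males, where 1.73% of all genes were higher and 1.03% lower in ValR than in LeuR and none were called between the other pairs. In ValR against IleR, 2 of 7 members had an unadjusted p under 0.05 (Slc18a2 at -2.74 ± 1.16 and Fev at -1.77 ± 0.82), in ValR against LeuR 1 did (Slc18a2 at -2.72 ± 1.16) and in IleR against LeuR none did, and neither DESeq2 nor limma voom called any. The order of mean CPM among the diets placed IleR and LeuR above ValR and ValR above Control for Tph2, Slc6a4, Slc18a2 and Fev, but ValR first for Lmx1b. Of the 21 pairs of neighbors in these orders only 3 had ranges that did not overlap, ValR above Control for Slc6a4 and for Fev and LeuR above Control for Lmx1b.

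**Figure D5:**
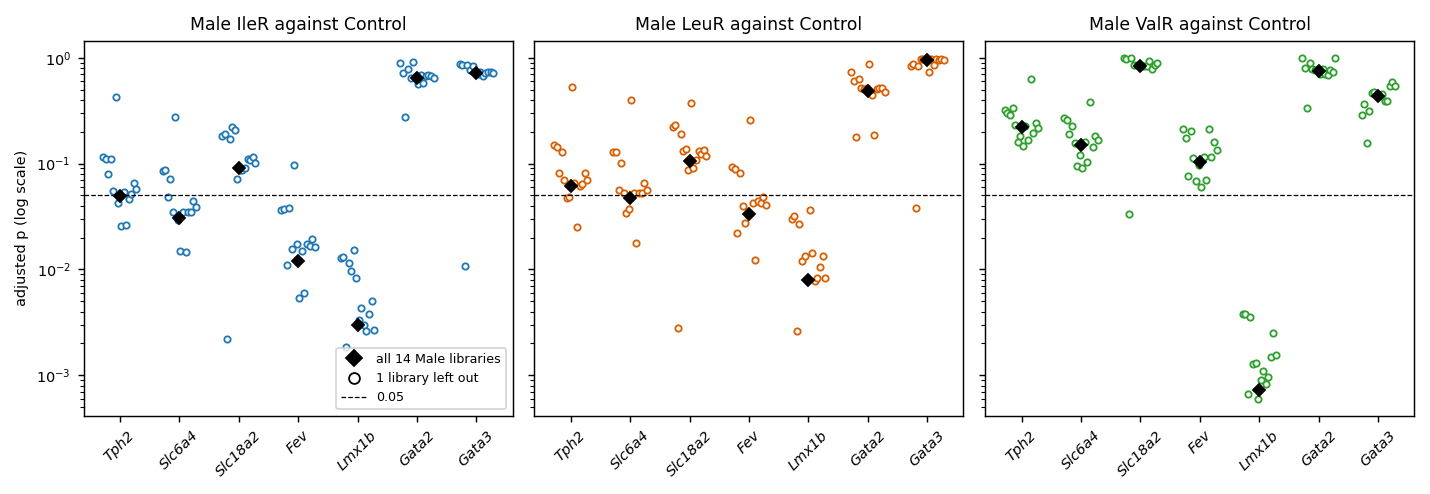
Adjusted p of each member against Control in males (log scale), with diamonds for all 14 libraries, circles for the 14 fits that each leave out 1 library and a dashed line at 0.05. Lmx1b stays under the line in every fit, whereas Tph2, Slc6a4 and Fev lie across it in IleR and LeuR and above it in ValR, and Slc18a2 under each diet and Gata3 in IleR and LeuR have 1 circle under the line, from the fit without Control 4.

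In females Tph2, Slc6a4 and Fev were low under every diet, apart from 1 library, while Slc18a2, Lmx1b and Gata3 were each high in a few more. Tph2 was between 0.171 and 35.9 CPM in Control with a median of 0.468, and its median was 0.820 in IleR, 0.412 in LeuR and 0.563 in ValR. The highest Control value was that of library 27 and the next was 0.518 CPM. IleR libraries 38, 39, 40, 41 and 42 had 0.747, 0.368, 1.12, 1.38 and 0.820 CPM, LeuR ran up to 3.06 CPM in library 46, and no ValR library exceeded 0.703 CPM. Control 27 therefore lay above every other female library. Its Tph2 level was between those of male ValR 10 and male IleR 14, though CPM were scaled for each sex apart.

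Control 27 was also the highest of the 23 female libraries in Slc6a4 (23.4 CPM, next 0.750), Slc18a2 (22.4 CPM, next 13.6), Fev (2.12 CPM, next 0.556), Gata2 (10.2 CPM, next 7.91) and Gata3 (14.9 CPM, next 8.51). For Lmx1b it had 2.25 CPM, below ValR 36 at 3.66, ValR 32 at 3.07 and LeuR 45 at 2.97. Its brainstem list summed to 20.1 CPM and its cerebellar list to 36.9 CPM, well under the 140 and 1557 CPM of ValR 36. The library highest in the serotonin genes was thus not one of those highest in these 2 lists. Whether it held more of a brain region that these lists do not mark was not tested. Th was at 8.39 CPM in Control 27 and Slc6a3 at 8.39 CPM, the highest Slc6a3 among females.

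No member was called in any female comparison with Control, in which 5 of the 7 passed the filter and Slc6a4 and Gata3 did not. By the same rule 0 of 20344 genes were called in either direction. The libraries of a restricted diet lay above all Controls or below all Controls for 0 members, against 0.108% of genes above and 0.143% below in IleR, 0.133% and 0.0836% in LeuR, and 0.0737% and 0.0541% in ValR. At an unadjusted p under 0.05 there was 1 member in IleR (Tph2), 1 in LeuR (Tph2) and 2 in ValR (Tph2 and Fev), all lower than Control, and DESeq2 and limma voom called none. Tph2 had log2 fold changes of -2.80 ± 1.15, -2.88 ± 1.09 and -3.74 ± 1.14 in IleR, LeuR and ValR. Without Control 27 these were 1.20, 1.11 and 0.26. For Fev the values were -1.05 ± 0.91, -1.41 ± 0.92 and -2.57 ± 1.01, and without Control 27 they were 0.84, 0.47 and -0.69, with Fev in ValR at no more than 2 counts in any library.

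The values of the other members in females also moved with Control 27. Lmx1b had log2 fold changes of -0.54 ± 0.97, 0.84 ± 0.88 and 1.16 ± 0.86 in IleR, LeuR and ValR, Slc18a2 had -1.53 ± 0.92, -0.93 ± 0.85 and 0.06 ± 0.83, and Gata2 had 0.01 ± 0.22, 0.19 ± 0.21 and -0.20 ± 0.21, all with adjusted p of 0.968 or above (edgeR). Without Control 27 they were 0.56, 1.94 and 2.27 for Lmx1b, 0.35, 0.95 and 1.95 for Slc18a2, and 0.27, 0.44 and 0.05 for Gata2. In that fit Lmx1b in LeuR and ValR, Slc18a2 in ValR and Gata2 in LeuR had an unadjusted p under 0.05, and no adjusted p of these 3 genes was below 0.640. With no filter on low counts, Slc6a4 had -3.86, -3.81 and -4.52, values set by Control 27, since no other female library had more than 13 counts of it. Between the restricted diets in females no member was called by edgeR, none had an unadjusted p under 0.05, and DESeq2 and limma voom called none. All 21 neighboring pairs of diets in the order of the female means overlapped.

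Whether the diet effect differed between the sexes was tested as an interaction in 1 fit of all 37 libraries. In ValR, Slc6a4 (8.33 ± 2.27, adjusted p = 0.0358) and Tph2 (6.73 ± 2.01, adjusted p = 0.0496) were called, with the male effect the more positive, against 0.677% of 22465 genes called in that direction and 3.57% in the other. In IleR and LeuR edgeR called no member (0% and 0.00445% of genes were called in that direction), with 5 of 7 at an unadjusted p under 0.05 in each, while DESeq2 called 5 and 2 and limma voom none. Slc6a4 had a library at 0 counts in male Control and in every female group, so it entered this fit only through the restricted male groups, where it was high. With no filter its ValR difference was 8.36 (adjusted p = 0.0455), and that of Tph2, which passed in every group, was 6.75 and no longer called (adjusted p = 0.0647). DESeq2 called 4 members in ValR and limma voom 0. Of the 37 fits that each left out 1 library, 26 kept the ValR call of Slc6a4 and 12 that of Tph2. Both calls were lost without female Control 27, at 3.31 (adjusted p = 0.323) for Slc6a4 and 2.77 (adjusted p = 0.295) for Tph2.

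Over the 23 female libraries the members were correlated in log2 CPM, and most of this rested on Control 27. The strongest of the 21 pairs was Tph2 with Slc6a4 (Pearson r = 0.883, permutation p = 0.00011, adjusted p = 0.00116; Spearman rho = 0.536, permutation p = 0.00915, adjusted p = 0.0276), and r was 0.429 without the 2 libraries farthest from the median of Tph2. Without Control 27, 2 pairs passed the threshold for Pearson's r, down from 16. Those were Tph2 with Gata3 (r = 0.722, permutation p = 7e-05, adjusted p = 0.00147; rho = 0.721, permutation p = 0.00026, adjusted p = 0.00546) and Tph2 with Slc6a4 (r = 0.588, permutation p = 0.00400, adjusted p = 0.0420; rho = 0.469, permutation p = 0.0287, adjusted p = 0.0753). Tph2 with Gata3 had r = 0.698 over all 23 libraries (permutation p = 1e-05, the smallest that 100000 permutations can give, adjusted p = 0.000210; rho = 0.756, permutation p = 0.0001, adjusted p = 0.00210) and 0.689 without the 2 farthest. No pooled r between members was computed in males, where Control and the restricted diets did not overlap in hindbrain score.

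The level of Gata3 was also set beside those of its partner genes. Tal1 and Sox14, factors of midbrain GABAergic neurons, were among the 5 genes whose female pattern was most like that of Gata3 (r = 0.893 and 0.927 over 23 libraries after removing diet means, among 16381 genes; this search by single members was added after values were seen). In female Control 27 Tal1 was at 16.6 CPM and Sox14 at 4.50 CPM, in ValR 34 at 10.2 and 4.01 CPM and in LeuR 46 at 8.56 and 3.63 CPM. Male Control 4, the highest male library in Gata3, had 18.0 CPM of Tal1 and 5.35 CPM of Sox14. Other males did not share this for Sox14, which was at 0.869 CPM in IleR 13 and 0.671 CPM in LeuR 19, where Gata3 was at 6.70 and 7.03 CPM, and neither gene was among the 5 most like Gata3 in males. Among the 8 partner genes of the GATA factors, none changed in IleR-fed males (2 at an unadjusted p under 0.05, 2 called by DESeq2 and none by limma voom), Zfpm1, a GATA cofactor, fell in LeuR (log2 fold change -1.11 ± 0.31) and in ValR (-0.87 ± 0.29, adjusted p = 0.0414), and Zfpm2 rose in ValR (1.19 ± 0.33, adjusted p = 0.0208, edgeR). In LeuR DESeq2 called 1 and limma voom 0 of the 8, and in ValR 2 and 1, while 6.33% of all genes fell in LeuR and 12.4% in ValR by edgeR. Their medians were 0.39, -0.15 and -0.15 in IleR, LeuR and ValR. The 3 highest of the list by male median CPM per kb of exon were Ldb1 (23.7), Lmo2 (6.41) and Zfpm1 (6.34), and in females they were Ldb1 (25.0), Zfpm1 (9.98) and Lmo2 (5.77). None of the 7 partner genes tested in females was called by edgeR, DESeq2 or limma voom, or had an unadjusted p under 0.05, in a comparison with Control.

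By the rule used here, the 5 genes most like the mean z-score of Tph2, Slc6a4 and Fev over 14 male libraries, after removing diet means, included Aff2 (r = 0.918), Hsd17b12 (0.879) and Cstb (0.869). Over the 23 female libraries the 5 were Appbp2 (r = 0.816), Nxpe3 (0.814), Ttc9c (0.807), Zfp655 (0.801) and Sos1 (0.798). All 5 female genes were highest in Control 27. The same search for single members, added after values were seen, placed Isoc1 (r = 0.970) first and Maoa (r = 0.938) among the 5 most like Slc18a2 in males.

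Other genes of serotonin synthesis, breakdown and neuron identity were counted from a list of 19, against the background shares given above. In IleR-fed males 5 rose, in LeuR-fed males 6 rose and in ValR-fed males 5 rose and 2 fell, with median log2 fold changes of 0.72, 0.64 and 0.16. Maoa, which breaks down serotonin and noradrenaline, rose under all 3 diets, from 32.9 CPM in Control to 54.1 in IleR (0.72 ± 0.17, adjusted p = 0.0121), 51.3 in LeuR (0.64 ± 0.17, adjusted p = 0.0308) and 49.7 in ValR (0.60 ± 0.16, adjusted p = 0.0153, edgeR). Slc29a4, a low-affinity monoamine transporter, rose by 1.39 ± 0.23, 1.41 ± 0.23 and 1.48 ± 0.22, and all of its restricted libraries lay above all Controls. Nkx2-2, a homeodomain factor of serotonin precursors and of oligodendrocyte precursors, rose by 1.10 ± 0.30, 1.29 ± 0.30 and 0.94 ± 0.28.

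In the synthesis of tetrahydrobiopterin, the cofactor of Tph2, Gchfr, which regulates its first enzyme, rose under all 3 diets (2.40 ± 0.64, 2.23 ± 0.64 and 1.86 ± 0.62 in IleR, LeuR and ValR), and Spr (0.44 ± 0.10) and Pcbd1 (1.99 ± 0.56) rose in LeuR. En2, a midbrain and cerebellar factor, rose in IleR (4.67 ± 0.94, adjusted p = 0.00541) and in ValR (4.95 ± 0.93, adjusted p = 0.00192, edgeR). Slc22a3, another low-affinity transporter, fell by 2.23 ± 0.67 on the log2 scale in ValR. Ddc, which completes serotonin synthesis but also makes dopamine, was at 30.4, 31.4 and 11.2 CPM in IleR, LeuR and ValR against 9.59 in Control, with adjusted p from 0.0845 to 0.834. Tph1, the form of the enzyme outside the brain, was listed between 0.151 and 0.265 CPM on average in the 4 male groups. By median CPM per kb in males, Qdpr (109), Maoa (11.8) and Slc29a4 (11.8) were highest, and in females Qdpr (91.6), Maoa (8.28) and Maob (8.25).

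No gene of that list was called in females, where 17 of 19 were tested, with 1 at an unadjusted p under 0.05 in IleR and 0 in LeuR and ValR, and none was called by DESeq2 or limma voom. Their median log2 fold changes in females were -0.01, 0.07 and 0.09 in IleR, LeuR and ValR.

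Set on a scale of CPM per kb of exon, which allows levels of different genes to be compared, the members had low median levels in both sexes. In males the order of medians was Gata2 (1.32), Slc18a2 (1.20), Lmx1b (0.671), Gata3 (0.493), Tph2 (0.417), Fev (0.367) and Slc6a4 (0.217). In females it was Gata2 (0.995), Slc18a2 (0.247), Tph2 (0.166), Gata3 (0.157), Lmx1b (0.0610), Fev (0.0593) and Slc6a4 (0.0339). The highest library exceeded the median 48.9-fold for Tph2 in males and 75.3-fold in females, but only 2.09-fold and 1.91-fold for Gata2. In male IleR 14 and LeuR 19, Tph2 reached 19.7 and 20.4 CPM per kb, above every other member in those libraries.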

How the data were processed

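Brain RNA was sequenced in 47 samples named in the labels, of which 37 are analysed here. For each sex the authors deposited 1 table of expected counts per gene, as RSEM estimates them, not normalized. Values that were not whole made up 3.69% to 4.93% of a library and were rounded. Per the labels, the submitters' processing notes name R 3.4.3, edgeR and limma; the aligner is not given in the sources used here. The labels speak of stranded, poly(A)-selected libraries and the methods of total RNA. The authors' comparison tables (log2 fold changes and p-values) were not used. All count columns were mapped to a sample. Sex genes matched the labelled sex in 37 of 37 libraries, and no pair of libraries in a group agreed within sampling noise.

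The sexes were fitted apart with all 4 diets in edgeR 4.0.16 (R 4.3.3), by its quasi-likelihood test with TMM scaling and Benjamini-Hochberg adjustment over all genes tested (threshold 0.05). Genes needed 1 count or more in each library of some diet group. The sex difference came from a fit of all libraries. SE values were derived from the quasi-likelihood test, as the size of the log2 fold change divided by the square root of its F statistic. Scripts were tested on simulated data. limma 3.58.1 (voom), DESeq2 1.42.0, other scalings and filters, a hindbrain covariate and leaving out libraries were tried as alternatives. Correlations used log2 CPM with a prior count of 2 and 100000 permutations, two-sided. Levels per kb used the summed exon length of the annotation.

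The members and lists were chosen with earlier results of these data known. Named are the members, genes of the pathway and GATA partner lists past the threshold or with the 3 highest levels per kb, and the 5 genes per sex most like the mean z-score of Tph2, Slc6a4 and Fev. Some genes that this rule or these lists hold are counted but not reported by name here.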

Additional observations from a re-analysis of the deposited data

Results flagged for a closer look

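In 14 of 42 groups of 4 to 6 libraries, 1 library stood apart from the rest by Dixon's test at the 95% level. For independent, normally distributed values chance alone gives this in about 1 in 20 groups. CPM of these genes is skewed and the 7 members share the same libraries, so that rate need not hold here. Female Control 27 stood apart in all 7 members, with 35.9 CPM of Tph2 (the other Controls at 0.171 to 0.518), 23.4 CPM of Slc6a4 (0 to 0.230), 22.4 CPM of Slc18a2 (0.675 to 1.88), 2.12 CPM of Fev (0 to 0.300), 2.25 CPM of Lmx1b (0.114 to 0.633), 10.2 CPM of Gata2 (3.52 to 5.98) and 14.9 CPM of Gata3 (0 to 3.07). Male Control 4 stood apart in Slc18a2 (14.0 CPM, others 0.204 to 0.533) and Gata3 (14.8 CPM, others 0 to 0.769). Female LeuR 46 stood apart in Tph2 (3.06 CPM, others 0.175 to 0.477) and Gata3 (7.31 CPM, others 0 to 2.72). The remaining cases were Tph2 in male ValR 10 (11.6 CPM, others 0.255 to 2.09), Fev in female LeuR 45 (0.556 CPM, others 0 to 0.188) and Gata3 in female ValR 34 (8.51 CPM, others 0 to 0.624). Groups of 3, male IleR and male LeuR among them, were not tested this way.

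The effect of ValR differed between the sexes for Slc6a4 (log2 difference 8.33) and Tph2 (6.73) by the interaction test of edgeR. Slc6a4 entered that fit only through the restricted male groups, where it was high, and with no filter on low counts its call was kept (adjusted p = 0.0455) and that of Tph2 was lost (adjusted p = 0.0647). The calls were kept in 26 and 12, respectively, of 37 fits that each left out 1 library. Neither passed the threshold without female Control 27.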

How the results depend on the processing

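No paired analysis was possible because no number is shared between groups in the labels. Counts of members called moved as follows. For IleR-fed males 4 became 3 with DESeq2 size factors (Tph2 at adjusted p = 0.0501), 2 with a filter at 10 counts, in limma voom and without both IleR 14 and LeuR 19, and 1 to 5 with 1 library left out. For LeuR-fed males 3 became 4 with both sexes in 1 fit and in DESeq2, 2 with a filter at 10 counts, 1 in limma voom, 0 with only the 2 groups compared (where no gene of 21015 was called), 0 without both those libraries (where 39 of 22785 genes rose and 168 fell), and 1 to 4 with 1 left out. For ValR-fed males 1 became 3 in DESeq2, 4 with only the 2 groups compared, 3 without both libraries, and 1 to 2 with 1 left out. For the sex difference in IleR 0 became 1 with DESeq2 size factors, 5 in DESeq2 and 0 to 5 with 1 left out, and in LeuR 0 became 2 in DESeq2 and 0 to 4. In ValR 2 became 1 with no filter, 1 with a filter at 10 counts, 0 in limma voom, 4 in DESeq2 and 0 to 4 with 1 left out. At 10 counts Tph2 and Slc6a4 were tested neither in males nor in the sex difference. Counts at that filter therefore leave them out, and the 1 member called there in the ValR sex difference was neither of them. With the hindbrain score as a covariate 0 members were called in each male comparison with Control and in the sex difference in ValR. By that fit 3, 10 and 0 of 22197 genes were called in IleR, LeuR and ValR and 0 of 22465 in the sex difference in ValR. At an unadjusted p under 0.05 there were 1854, 1760, 1994 and 1681, so the counts of 0 members are not particular to them. In the sex difference in LeuR, the covariate fit called 55 of 22465 genes higher and 136 lower, against 1 and 0 without the covariate. Without female Control 27, 2 of 21 correlations passed the threshold in place of 16. Beyond the loss of Tph2 and Slc6a4 from testing at 10 counts, the cause of these moves was not tested.

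Directions turned with the hindbrain covariate in IleR for Tph2 (-5.06), Slc6a4 (-5.06), Fev (-1.21), Gata2 (-1.85) and Gata3 (-5.93), in LeuR for Tph2 (-4.40), Slc6a4 (-4.48), Fev (-0.97) and Gata2 (-1.33), and in ValR for Tph2 (-8.76), Slc6a4 (-9.12), Slc18a2 (-2.49), Fev (-3.83) and Gata2 (-2.36). In limma voom they turned for Gata3 in male LeuR (1.74) and ValR (1.23) and for Tph2 (0.13) and Fev (0.14) in female IleR, and without both IleR 14 and LeuR 19 for Gata2 in LeuR (-0.13). With 1 library left out, log2 fold changes that turned ran in males from -0.14 to 0.75 for Gata2 and from -1.14 to 3.38 for Gata3 in LeuR, and from -1.96 to 2.07 for Gata3 in ValR. In female IleR they ran from -3.05 to 1.20 for Tph2, -1.97 to 0.35 for Slc18a2, -1.37 to 0.84 for Fev, -1.27 to 0.56 for Lmx1b and -0.079 to 0.27 for Gata2, in female LeuR from -4.03 to 1.11 for Tph2, -1.35 to 0.95 for Slc18a2 and -2.49 to 0.47 for Fev, and in female ValR from -3.99 to 0.26 for Tph2, -0.55 to 1.95 for Slc18a2 and -0.31 to 0.048 for Gata2. Of 328 member values under the other alternatives, 284 kept their direction and side of the threshold, 16 lost the threshold, 9 gained it and 19 turned.

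With 3 or 4 libraries in a male group, 1 library can set a call. Fev, Slc6a4 and Lmx1b had at most 8 counts in any male Control, so their fold changes depend on the prior count. Leaving out both IleR 14 and LeuR 19, and Control 27 from the correlations, was chosen after seeing the data. With the longest transcript as length, Gata2 averaged 2.19 CPM per kb in males in place of 1.45.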
